A study of Mus musculus with 16 samples.

Results

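The effect of nicotinamide riboside (NR) on hippocampal gene expression was measured in hTau.P301S mice, which express human tau carrying the P301S mutation of inherited frontotemporal dementia under the neuronal Thy1 promoter. The comparison set 4 hTau.P301S mice given 6 mM NR in the drinking water (hTau.P301S + NR) against 4 hTau.P301S mice given vehicle water, 8 of the 16 mice sequenced, and was made with all 8 mice and again with 7, without hTau.P301S replicate 1. WT mice without the transgene, 4 on vehicle and 4 on NR (WT + NR), served for values side by side. Per the labels, the mice were 12 months old at the start and 15 months at the end of a 3-month treatment, whereas the text of the study gives younger ages and in one place a shorter course. The mice went through behavioural tests before the hippocampus was taken, and poly(A) RNA was sequenced. Of 54532 genes listed, 16386 passed the low-count filter with 8 mice and 16734 with 7.

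NR is a precursor of nicotinamide adenine dinucleotide (NAD+). It is phosphorylated by NR kinases, Nmrk1 among them, to nicotinamide mononucleotide, which NMNAT enzymes convert to NAD+. NAD+ is an electron carrier in energy metabolism and is consumed by sirtuins and poly(ADP-ribose) polymerases. Tau binds microtubules in axons, and mutant tau detaches and aggregates in neurons, which include the pyramidal and granule cells of the hippocampus.

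The 8 libraries held 17096764 to 21915362 counts. hTau.P301S replicate 1 stood apart. It had the fewest counts, 19467 genes detected against 22199 to 24090 in the other 7 mice, and 14.4% of its counts from mitochondrially encoded genes, against 4.54% to 7.07%. In 37.3% of the genes its level was above all 7 other mice and in 41.1% below all of them, whereas any other mouse was the highest or lowest in 9.31% to 22.5% of genes. The mitochondrial share was 7.91 ± 4.47% on vehicle and 5.49 ± 0.861% with NR in hTau.P301S mice (SD, n = 4; two-sided exact permutation p = 0.371, the smallest possible being 0.0286). Without replicate 1 the first became 5.73 ± 1.25% (SD, n = 3; exact permutation p = 0.743, the smallest possible being 0.0571). Y-linked transcripts were present in 2 of 4 hTau.P301S mice and in 3 of 4 with NR, and Xist in the others, so that sex was not balanced between the groups; the labels give none, and its part in the results was not tested.

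Levels below are CPM, read counts relative to the size of the library after scaling by its TMM factor, and folds are log2 values of hTau.P301S + NR over hTau.P301S (log2FC). A differentially expressed gene (DEG) had an edgeR quasi-likelihood p of under 0.05 after Benjamini-Hochberg adjustment over all genes tested and an absolute log2FC above 0.5. With 8 mice there was 1 DEG, Gabre, which rose with NR. That is 0.0061% of the genes tested, and 0 genes, or 0%, fell. In the same fit 2110 genes had an unadjusted p under 0.05, and DESeq2 called 253 genes. With 7 mice there were 33 DEGs: 26 rose (0.155% of genes tested) and 7 fell (0.0418%), with 3008 genes at an unadjusted p under 0.05 and 687 called by DESeq2. The median log2FC over all genes was -0.03 with 8 mice and 0.00 with 7. Of the 33 DEGs, 32 were tested with 8 mice, and all 32 had the same direction there. The 8 mice include the 7 that gave the DEGs, so this agreement is no separate support.

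**Figure D1:**
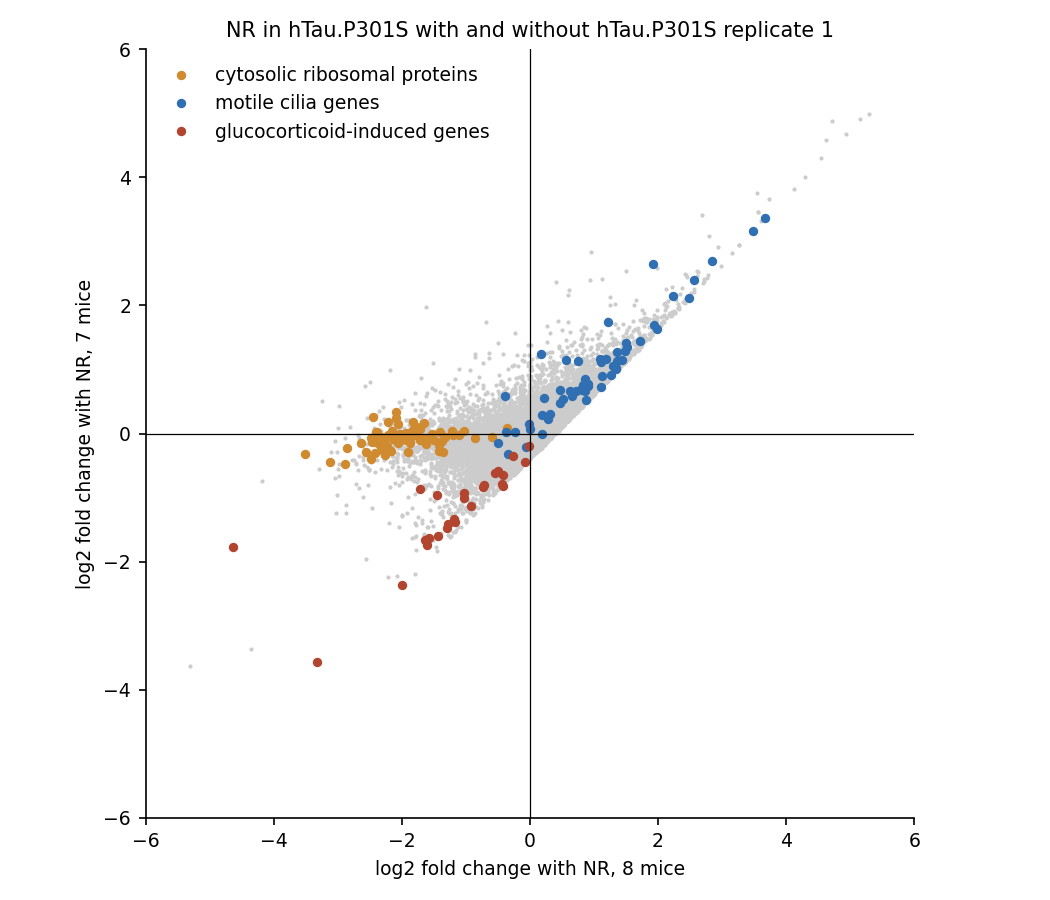
Log2FC with NR in hTau.P301S for each gene tested with 8 mice (x axis) and with 7 mice, without hTau.P301S replicate 1 (y axis). Grey points are genes and coloured points are members of 3 gene lists, and 2 genes lie outside the axes. Ribosomal protein genes sit far left of 0 but near 0 on the y axis, whereas motile cilia genes and glucocorticoid-induced genes lie near the diagonal.

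The set of DEGs with 7 mice also depended on which mice were used. When another mouse was left out as well, 15 genes were called without hTau.P301S replicate 2, 14 without replicate 3 and 0 without replicate 4. Leaving out an hTau.P301S + NR mouse gave 0 calls without replicate 1, 0 without replicate 2, 90 without replicate 3 and 2 without replicate 4. Of the 33 DEGs, 7 remained without hTau.P301S replicate 2, 7 without replicate 3, 30 without hTau.P301S + NR replicate 3 and 2 without hTau.P301S + NR replicate 4. When all 4 groups shared one estimate of the spread in edgeR, 2 of the 33, Plin4 and Htra1, passed (adjusted p = 0.0465 each with 8 mice), whereas DESeq2 fitted to all 4 groups called 18 of the 33 with 8 mice and 17 with 7. Beside the DEGs, the text counts genes with an unadjusted p under 0.05 and the same sign in both fits, which were 5.64% of genes on the higher side and 4.41% on the lower side, and genes whose groups did not overlap with 8 mice, which were 6.33% and 5.54%. The counts of each list below are to be read against these shares over all genes, also where the shares are not repeated. With 8 mice DESeq2 called 184 genes higher and 69 lower of 30014, and voom with sample quality weights 713 and 239 of 16386. List calls by DESeq2 and voom are to be read against those numbers. Voom gave hTau.P301S replicate 1 a weight of 0.0498, against 0.736 to 3.48 for the other mice. Its calls with 8 mice thus rest little on replicate 1.

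Gabre (ENSMUSG00000031340, chrX:72255999-72274803, minus strand, mm10) codes for the ε subunit of the GABA-A receptor, the chloride channel of fast inhibition. It is shown first because it passed the test with all 8 mice. Its promoter, from RefSeq on GRCm38.p6 (chrX:72274672-72274971, minus strand), is printed with no capitals because it held neither of the motifs searched below.

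Gabre: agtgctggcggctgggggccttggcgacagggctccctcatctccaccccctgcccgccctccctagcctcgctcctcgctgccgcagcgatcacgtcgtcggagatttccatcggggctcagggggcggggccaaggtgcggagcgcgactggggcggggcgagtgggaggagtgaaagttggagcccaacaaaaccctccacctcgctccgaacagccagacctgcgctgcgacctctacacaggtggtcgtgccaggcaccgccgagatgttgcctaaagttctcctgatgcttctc

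Gabre stood at 0.256, 0.371, 0.545 and 0.277 CPM in hTau.P301S replicates 1 to 4. In hTau.P301S + NR mice it stood at 4.30, 4.90, 3.70 and 4.76 CPM. The groups did not overlap, and every NR mouse was several times above every vehicle mouse. The log2FC was 3.56 (SE 0.33, adjusted p = 0.0385, edgeR) with 8 mice and 3.46 (SE 0.321, adjusted p = 0.0195) with 7. Leaving out any mouse other than hTau.P301S replicate 1 raised the adjusted p above the threshold, up to 0.325, while the direction did not change. In WT mice, which carry the same gene, Gabre ranged more widely than in either transgenic group, at 3.01, 14.6, 0.896 and 0.0541 CPM on vehicle and 0.36, 0.0546, 13 and 0.846 CPM with NR. The highest WT values, in WT replicate 2 and WT + NR replicate 3, were from the mice of each WT group with the highest levels of the striatal and hypothalamic genes described below.

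Gabrq and Gabra3 lie next to Gabre on the X chromosome and code for the θ and α3 subunits. Gabrq stood at 0, 1.06, 1.85 and 1.16 CPM in hTau.P301S and at 9.46, 8.09, 4.48 and 11.1 CPM with NR, and it rose with 7 mice (log2FC 2.62, SE 0.366, adjusted p = 0.0389) without overlap between groups. With 8 mice its adjusted p was 0.35. Gabra3 was 56.2 ± 22.1 CPM in hTau.P301S and 99 ± 28.6 CPM with NR (SD, n = 4), and its groups overlapped (adjusted p = 0.367 with 8 mice, 0.205 with 7). Gad2, the GABA-synthesizing enzyme GAD65, stood at 43.5, 189, 183 and 163 CPM in hTau.P301S, the lowest value being replicate 1. With NR it stood at 414, 383, 270 and 403 CPM. It rose with 7 mice (log2FC 1.05, SE 0.16, adjusted p = 0.0496) but had an adjusted p of 0.367 with 8. Of 25 tested GABA-A receptor and GABA synapse genes, 3 were DEGs with 7 mice, Gabre, Gabrq and Gad2, all higher, against 0.155% of all genes. At an unadjusted p under 0.05 in both fits 8 were higher and 1 lower, against 5.64% and 4.41% of all genes. Gabre, near 0 on vehicle, could pass the low-count filter only through the NR mice. The list's median log2FC was 0.31 with 8 mice and 0.12 with 7. The γ3 subunit Gabrg3 was 21.1 ± 2.91 CPM in hTau.P301S and 35.8 ± 4.44 CPM with NR (adjusted p = 0.304). The lower gene was Gabrr2, the ρ2 subunit, with 4.06 ± 1.62 CPM against 1.19 ± 0.317 CPM (SD, n = 4; adjusted p = 0.299).

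**Figure D2:**
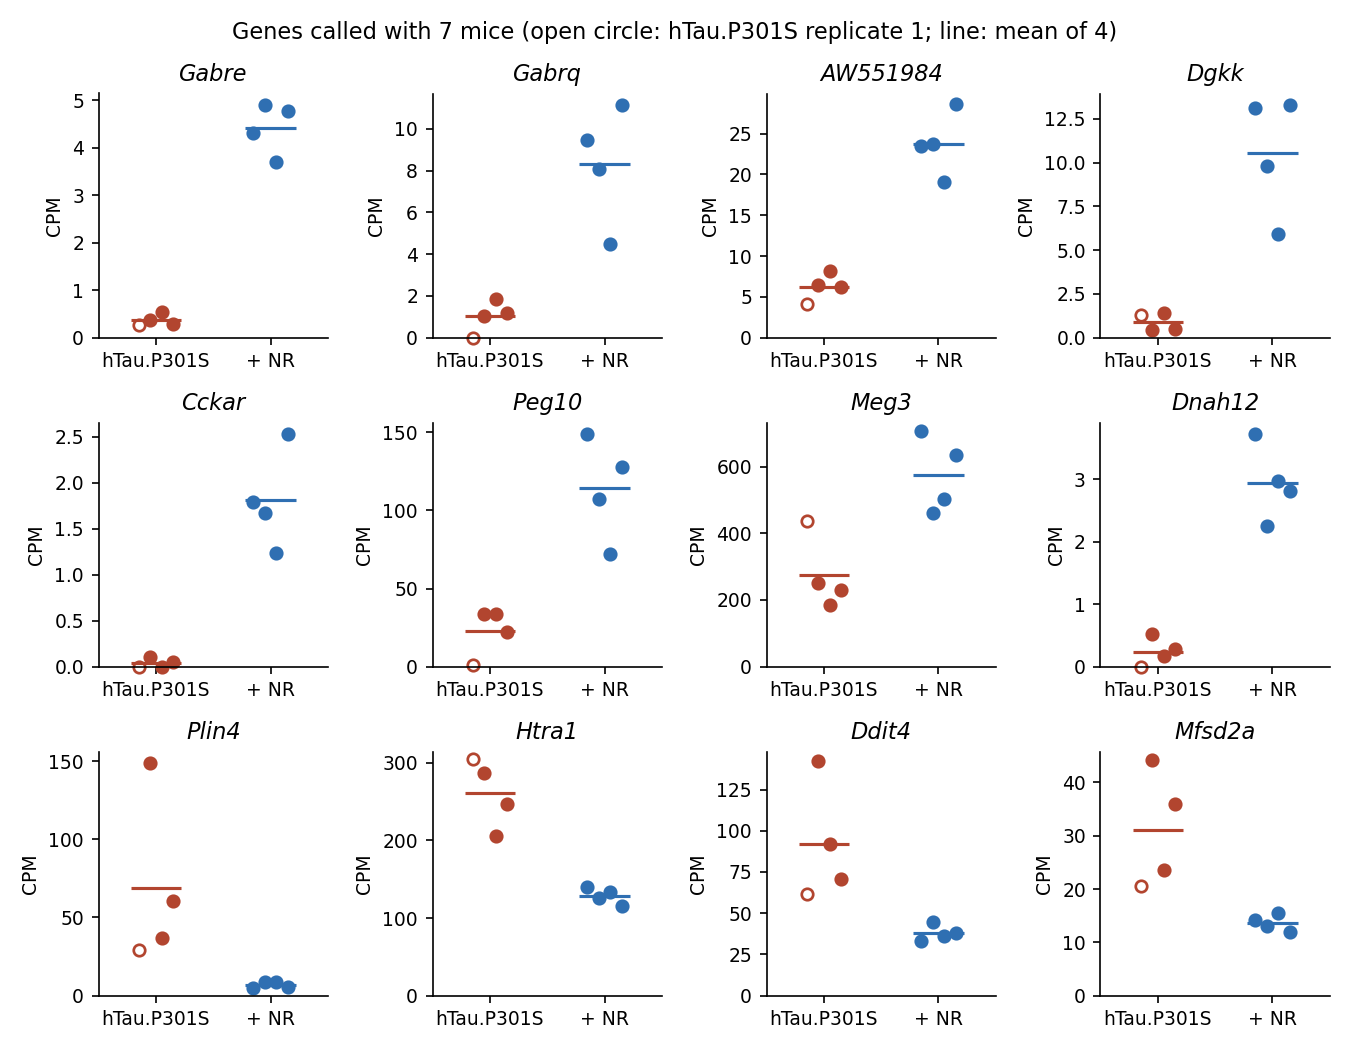
CPM (y axis, from 0, scaled separately) of 12 genes called with 7 mice, in hTau.P301S (red) and hTau.P301S + NR mice (blue). Each point is 1 mouse, the open circle is hTau.P301S replicate 1 and the line is the mean of 4. In all 12 panels the groups do not overlap, and for Peg10 and Meg3 replicate 1 lies apart from the other vehicle mice.

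Further genes rose with 7 mice. AW551984 stood at 4.10, 6.41, 8.12 and 6.15 CPM in hTau.P301S and at 23.4, 23.7, 19 and 28.7 CPM with NR (log2FC 1.79, SE 0.183, adjusted p = 0.0231 with 7 mice, 0.193 with 8). Dgkk, diacylglycerol kinase κ, was 0.905 ± 0.517 CPM in hTau.P301S and 10.5 ± 3.47 CPM with NR (SD, n = 4; adjusted p = 0.0381 with 7 mice, 0.215 with 8). Cckar, a receptor for cholecystokinin, had 0, 2, 0 and 1 counts in the vehicle mice and 40, 32, 22 and 52 counts with NR, so that its groups were far apart but its fold rests on very few counts. Scn9a, a voltage-gated sodium channel, stood at 2.14 to 2.75 CPM in hTau.P301S and at 5.93 to 7.72 CPM with NR (log2FC 1.49, SE 0.224, adjusted p = 0.0496 with 7 mice, 0.26 with 8). The transcription factor Zfhx3 was 3.12 ± 1.16 CPM in hTau.P301S and 13.8 ± 4.1 CPM with NR (adjusted p = 0.0496 with 7 mice, 0.26 with 8). Gm45426, a predicted gene, was 0.354 ± 0.26 against 2.55 ± 0.54 CPM (adjusted p = 0.0415 with 7 mice). C230004F18Rik stood at 21.1 to 26 CPM in hTau.P301S and 41.1 to 62.6 CPM with NR (log2FC 1.18, adjusted p = 0.0381 with 7 mice).

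The next DEGs, which also rose, were chosen for naming after their values were seen. Sema6d, a semaphorin, stood at 23.7, 68.0, 57.0 and 66.9 CPM in hTau.P301S and at 130, 108, 105 and 105 CPM with NR (log2FC 0.82, SE 0.115, adjusted p = 0.0389 with 7 mice, 0.367 with 8). Srgap1, a GTPase-activating protein downstream of Slit and Robo, was 13.2 ± 5.24 against 29.7 ± 4.42 CPM (SD, n = 4; log2FC 0.93 with 7 mice). The sialomucin Podxl (log2FC 1) and the receptor Gpr101 (log2FC 1.15) rose with 7 mice too, and for Sema6d, Srgap1, Podxl and Gpr101 the lowest value was in hTau.P301S replicate 1. Rbm28, a nucleolar RNA-binding protein, had the smallest log2FC among the DEGs that rose, 0.69 (SE 0.106, adjusted p = 0.0496 with 7 mice).

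On the lower side, Plin4 (chr17:56100591-56109803, minus strand, mm10), a coat protein of lipid droplets, had the largest fold of the 7 DEGs. It stood at 29.1, 149, 36.7 and 60.8 CPM in hTau.P301S and at 4.88, 8.61, 8.63 and 5.44 CPM with NR. All vehicle mice were above all NR mice, although they differed widely among themselves. Plin4 fell with 7 mice (log2FC -3.57, SE 0.44, adjusted p = 0.0381) and had an adjusted p of 0.26 with 8 mice. In WT mice it was at 2 to 5.64 CPM on vehicle and 4.81 to 7.84 CPM with NR. Htra1 (chr7:130936111-130985660, plus strand, mm10), a secreted serine protease, stood at 305, 287, 206 and 247 CPM in hTau.P301S and at 139, 126, 134 and 115 CPM with NR (log2FC -0.93, SE 0.126, adjusted p = 0.0381 with 7 mice, 0.26 with 8). In WT mice it was at 102 to 131 CPM on vehicle and 125 to 161 CPM with NR.

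Ddit4, an inhibitor of mTORC1 signalling, stood at 61.6, 143, 92.2 and 70.8 CPM in hTau.P301S and at 33.2, 44.7, 36.0 and 37.8 CPM with NR (log2FC -1.42, SE 0.214, adjusted p = 0.0496 with 7 mice, 0.266 with 8). Mfsd2a, the lysolipid transporter of brain endothelium, stood at 20.6, 44.2, 23.6 and 36.0 CPM in hTau.P301S and at 14.2, 13, 15.6 and 11.9 CPM with NR (log2FC -1.33, SE 0.196, adjusted p = 0.0477 with 7 mice, 0.299 with 8). Neither gene's groups overlapped. Rhou was 91.1 ± 14.8 against 50.7 ± 2.74 CPM (SD, n = 4; log2FC -0.74 with 7 mice). The microRNA host gene Mir9-3hg was 36 ± 9 against 16.8 ± 1.23 CPM (log2FC -0.90) and the neuronal membrane protein gene Tmem59l 444 ± 166 against 220 ± 18.1 CPM (log2FC -0.71). For Mir9-3hg and Tmem59l the highest vehicle value was in hTau.P301S replicate 1.

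Plin4, Htra1, Ddit4 and Mfsd2a are also known as genes that glucocorticoids induce. Glucocorticoids are the adrenal stress hormones. They enter cells and bind the glucocorticoid receptor, which then binds response elements in DNA. A list of 26 genes known for such induction was put together after the values had been seen, so its counts describe these mice and test nothing. All 26 were lower with NR in both fits. The 4 genes above fell with 7 mice, 18 had an unadjusted p under 0.05 in both fits (4.41% of all genes on the lower side) and 14 had no overlap with 8 mice (5.54%). The list's median log2FC was -1.10 with 8 mice and -0.98 with 7. The summed level of the 26 genes was 3744, 3109, 1936 and 2551 CPM in hTau.P301S and 1434, 1246, 1564 and 1018 CPM with NR. It was 1095 to 1209 CPM in WT and 1283 to 1403 CPM in WT + NR mice. In this sum the hTau.P301S mice were above all 12 other mice, but Mt1, a metallothionein, supplied most of the sum in replicate 1. Without Mt1 and Mt2, a choice made after seeing the data, the sum was 1132 CPM in replicate 1 and 1438 to 2407 CPM in the other vehicle mice, against 800.4 to 1159 CPM with NR, 808 to 981 CPM in WT and 889 to 1089 CPM in WT + NR mice. Replicate 1 then lay within the range of the NR mice.

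Sgk1, a kinase that regulates ion transport, stood at 140, 317, 168 and 299 CPM in hTau.P301S and at 74.0, 74.8, 136 and 58.8 CPM with NR (log2FC -1.60, SE 0.293, adjusted p = 0.0632 with 7 mice, 0.35 with 8). Nfkbia, the inhibitor of NF-κB, was 39.4 ± 7.51 against 19.5 ± 2.46 CPM (SD, n = 4; adjusted p = 0.059 with 7 mice, 0.26 with 8), and the arrestin-domain gene Arrdc2 was 35.8 ± 15.1 against 11.5 ± 1.33 CPM (adjusted p = 0.0646 with 7 mice). Tsc22d3, an anti-inflammatory leucine zipper protein, was 111 ± 30.4 against 67.2 ± 3.38 CPM (adjusted p = 0.0715 with 7 mice). These genes missed the threshold in both fits, though in none of them did the groups overlap. Fkbp5, a co-chaperone of the glucocorticoid receptor, stood at 56.4, 191, 93.7 and 111 CPM in hTau.P301S and at 60.8, 59.0, 76.9 and 43.2 CPM with NR (adjusted p = 0.0814 with 7 mice). Its groups overlapped only through replicate 1. Cdkn1a, the cell cycle inhibitor p21, ranged from 3.68 to 78.2 CPM on vehicle and from 5.43 to 8.21 CPM with NR (adjusted p = 0.106 with 7 mice). Per1, a clock gene, was 91.9 ± 16.1 against 77 ± 14.5 CPM (SD, n = 4; adjusted p = 0.487 with 8 mice, 0.268 with 7). The metallothioneins were set by hTau.P301S replicate 1: Mt1 stood at 2544 CPM there and at 495 to 699 CPM in the other vehicle mice, against 217 to 436 CPM with NR (log2FC -1.72 with 8 mice, -0.87 with 7). Mt2 stood at 67.9 CPM in replicate 1 and at 1.66 to 3.34 CPM in the others, against 0.626 to 0.972 CPM with NR (log2FC -4.64 with 8 mice, -1.77 with 7).

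RefSeq promoters, 300 bases around each start, were searched for the glucocorticoid response element, written as the half-sites GNACA and TGTNC with any 3 bases between them, on either strand, in which N is any base. Among the 23 listed genes with a promoter in the table, chosen for known induction and so no test of NR, it was present in 3, or 13%. It was present in 0.432% of the 12042 tested genes with a promoter there. A gene was counted when the promoter of any of its start sites matched. With a promoter in the table, 0 of 18 DEGs that rose held it and 0 of 7 that fell. The promoters that held it are printed below with the element in capitals, from GRCm38.p6, each on its gene's strand: Sgk1 (chr10:21993640-21993939, plus), Mt1 (chr8:94178839-94179138, plus) and Map3k6 (chr4:133240568-133240867, plus). The element began 188, 94 and 181 bases before the start. For Sgk1 it was in 1 of the 6 start sites in the table. Map3k6 codes for a stress-activated kinase and was 7.86 ± 4.56 against 2.59 ± 0.558 CPM (SD, n = 4; adjusted p = 0.0715 with 7 mice).

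Sgk1: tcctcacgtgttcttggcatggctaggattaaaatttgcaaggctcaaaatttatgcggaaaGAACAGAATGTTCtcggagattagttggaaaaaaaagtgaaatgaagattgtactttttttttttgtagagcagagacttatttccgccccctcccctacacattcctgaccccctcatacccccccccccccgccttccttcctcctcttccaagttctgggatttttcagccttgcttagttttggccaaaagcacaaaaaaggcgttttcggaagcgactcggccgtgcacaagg

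Mt1: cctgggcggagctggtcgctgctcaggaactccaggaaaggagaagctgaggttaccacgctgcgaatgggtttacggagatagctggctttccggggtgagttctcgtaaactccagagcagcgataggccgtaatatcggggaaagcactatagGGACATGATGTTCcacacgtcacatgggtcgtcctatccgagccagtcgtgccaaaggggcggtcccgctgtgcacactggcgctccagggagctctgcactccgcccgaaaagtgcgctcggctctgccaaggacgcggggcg

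Map3k6: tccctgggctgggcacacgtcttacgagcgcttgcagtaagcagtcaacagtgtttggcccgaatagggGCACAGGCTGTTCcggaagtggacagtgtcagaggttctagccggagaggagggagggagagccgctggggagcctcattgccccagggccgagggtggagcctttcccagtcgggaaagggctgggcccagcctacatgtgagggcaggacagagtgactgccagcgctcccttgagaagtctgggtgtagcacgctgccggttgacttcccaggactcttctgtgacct

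**Figure D3:**
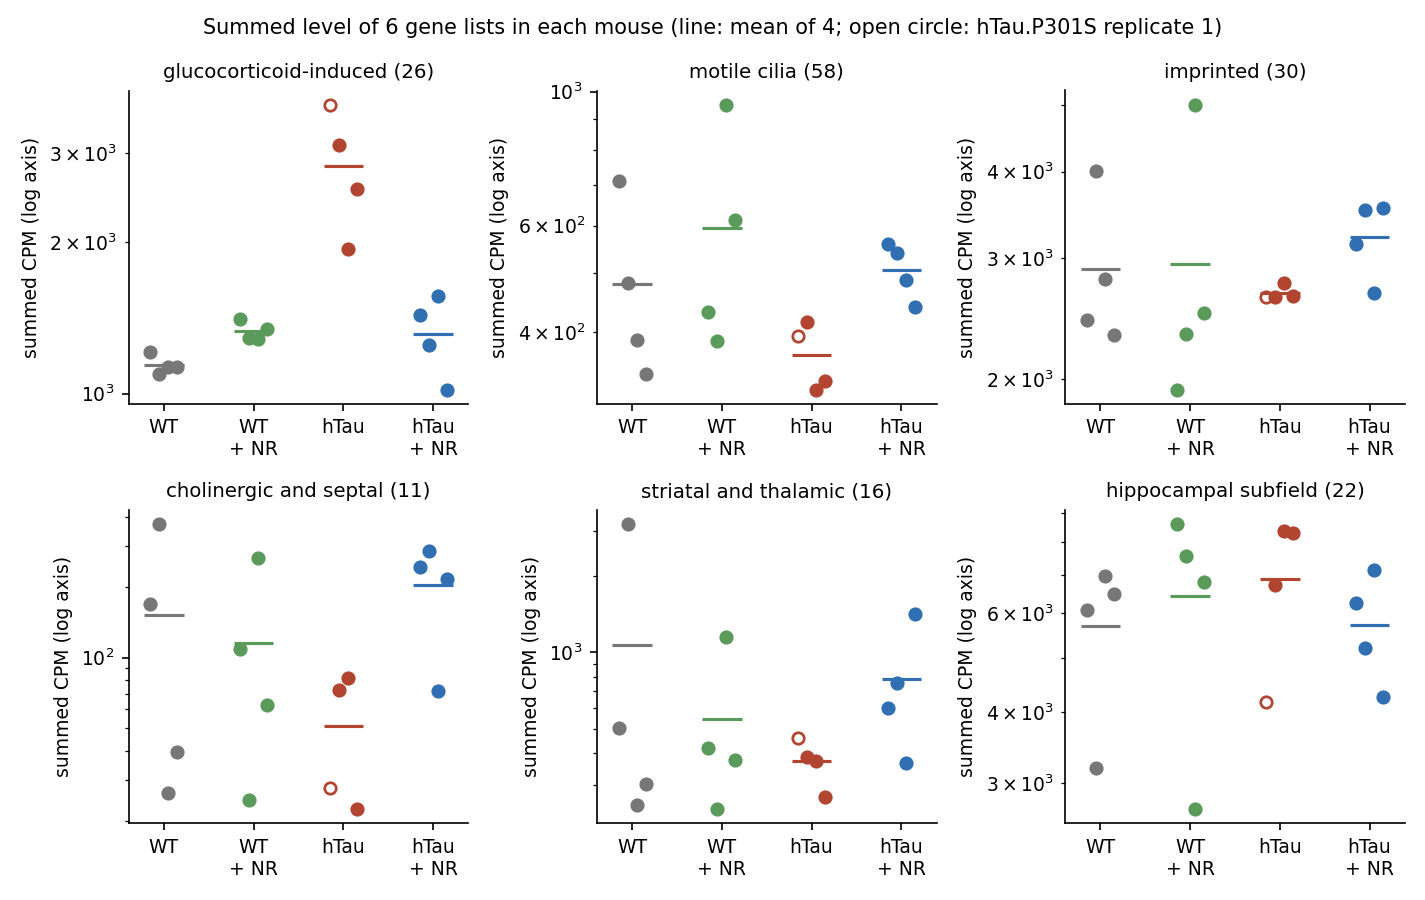
Summed CPM (log axis) of 6 gene lists in each of the 16 mice, with the number of genes in brackets. Points are mice, lines are means of 4, and the open circle is hTau.P301S replicate 1. The glucocorticoid-induced list is at 1936 CPM or above in hTau.P301S, where Mt1 gives 2544 of the 3744 CPM of replicate 1, and at 1564 CPM or below in the other 3 groups, whereas the cholinergic, striatal and hippocampal lists spread widely within WT and WT + NR.

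4 axonemal dynein genes, Dnah12, Dnah5, Dnah3 and Dnah1, were among the DEGs that rose. Axonemal dyneins are the motors of motile cilia, which in the brain line the ventricles on ependymal cells. Dnah12 stood at 0, 0.53, 0.163 and 0.277 CPM in hTau.P301S and at 3.72, 2.24, 2.97 and 2.82 CPM with NR (log2FC 3.16, SE 0.415, adjusted p = 0.0381 with 7 mice, 0.26 with 8). Dnah5 stood at 1.11, 4.03, 2.78 and 3.71 CPM and, with NR, at 12.6, 8.19, 11.3 and 12.9 CPM (log2FC 1.69, SE 0.228, adjusted p = 0.0381 with 7 mice, 0.26 with 8). Both were higher in every NR mouse than in any vehicle mouse. Dnah3 was 1 ± 0.814 against 3.76 ± 1.3 CPM (SD, n = 4; log2FC 2.65 with 7 mice, 1.93 with 8), with its highest vehicle value, 2.22 CPM, in hTau.P301S replicate 1. Dnah1 was 7.21 ± 1.09 against 15.5 ± 2.25 CPM (log2FC 1.17, adjusted p = 0.0496 with 7 mice). Hydin, a protein of the central apparatus of cilia, stood at 0.684 to 2.12 CPM in hTau.P301S and 4.85 to 9.19 CPM with NR (log2FC 2.40, SE 0.37, adjusted p = 0.0496 with 7 mice, 0.26 with 8).

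A list of 58 motile cilia genes, put together after these values had been seen, was higher with NR in 49 of 56 genes tested with 8 mice and in 53 of 57 with 7. Dnah12, Dnah3, Dnah5, Dnah1 and Hydin rose with 7 mice, 28 genes were higher at an unadjusted p under 0.05 in both fits (5.64% of all genes) and 25 had no overlap with 8 mice (6.33%). The median log2FC was 0.89 in both fits. As the list was put together after the values had been seen, these counts describe these mice and test nothing. Members near 0 on vehicle could also pass the low-count filter only through the NR mice. The summed level was 394, 416, 321 and 331 CPM in hTau.P301S and 559, 540, 488 and 440 CPM with NR, and it spanned 341 to 711 CPM in WT and 386 to 951 CPM in WT + NR mice. Cfap77, a protein of ciliary microtubules, was 0.232 ± 0.0962 against 1.14 ± 0.0814 CPM (SD, n = 4; adjusted p = 0.26 with 8 mice, 0.0646 with 7). Wdr66, also a ciliary protein, was 4.20 ± 0.549 against 9.11 ± 0.607 CPM (adjusted p = 0.0566 with 7 mice), and Dnah6 was 1.24 ± 1.13 against 9.03 ± 3.25 CPM (adjusted p = 0.0713 with 7 mice). Foxj1, the transcription factor that drives motile ciliogenesis, was 13.3 ± 7.06 against 23.5 ± 7.05 CPM with overlapping groups (adjusted p = 0.367 with 8 mice, 0.354 with 7). The summed level of 4 ependymal markers, Foxj1 among them, was 13 to 45.7 CPM in hTau.P301S and 34.5 to 58 CPM with NR. In whole tissue, fewer cells of a type and less RNA per cell cannot be told apart.

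The X-box, the element bound by the RFX factors of ciliated cells, was searched as the half-sites GTTNCC and GGNAAC with any pair of bases between them, on either strand. It was present in 2 of 46 motile cilia genes with a promoter in the table (4.35%), Ccdc180 and Cfap298, and in 0.639% of tested genes with one. As the 46 were picked as cilia genes, this share is no test of NR. The Ccdc180 promoter (chr4:45890053-45890352, plus strand) is shown with the X-box in capitals, which begins at the start site itself. Ccdc180, a coiled-coil protein gene, stood at 0, 0.424, 0.109 and 0.111 CPM in hTau.P301S and at 3.54, 2.35, 1.74 and 1.41 CPM with NR, without overlap (log2FC 3.36, SE 0.565, adjusted p = 0.059 with 7 mice, 0.26 with 8).

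Ccdc180: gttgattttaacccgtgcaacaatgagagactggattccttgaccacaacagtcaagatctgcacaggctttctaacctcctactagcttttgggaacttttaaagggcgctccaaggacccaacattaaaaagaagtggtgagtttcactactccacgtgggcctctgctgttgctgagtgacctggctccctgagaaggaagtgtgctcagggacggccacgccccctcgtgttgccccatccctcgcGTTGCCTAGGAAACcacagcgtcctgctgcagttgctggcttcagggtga

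The list of imprinted genes, which are expressed from the maternal or the paternal copy alone, gave 3 DEGs with 7 mice. The maternally expressed Meg3, a further DEG, was counted with the long noncoding RNAs below. Peg10, a gene derived from a retrotransposon, stood at 1.11, 34.0, 33.4 and 21.9 CPM in hTau.P301S and at 149, 107, 72.4 and 128 CPM with NR (log2FC 1.95, SE 0.255, adjusted p = 0.0381 with 7 mice, 0.367 with 8). Peg3, a zinc finger protein, stood at 95.7, 247, 176 and 186 CPM and, with NR, at 446, 393, 358 and 432 CPM (log2FC 1.02, SE 0.146, adjusted p = 0.0415 with 7 mice). Zdbf2 was 16 ± 6.46 against 49.3 ± 9.26 CPM (SD, n = 4; log2FC 1.44, adjusted p = 0.0496 with 7 mice). All 3 had their lowest value in hTau.P301S replicate 1, and none had overlapping groups. Of 28 imprinted genes tested, 11 were higher and 0 lower at an unadjusted p under 0.05 in both edgeR fits. Over all genes the shares were 5.64% and 4.41%. Voom with sample quality weights called 10 higher with 8 mice, against 713 of all 16386 genes. Members near 0 on vehicle, such as Calcr, could pass the low-count filter only through the NR mice. The median log2FC was 0.49 with 8 mice and 0.34 with 7. Calcr, the calcitonin receptor, was 0.122 ± 0.143 against 1.67 ± 0.763 CPM (adjusted p = 0.0646 with 7 mice) and the zinc finger gene Zim1 was 2.85 ± 1.07 against 10.5 ± 3.06 CPM (adjusted p = 0.0582).

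Meg3, a maternally expressed long noncoding RNA kept in the nucleus, stood at 438, 252, 184 and 229 CPM in hTau.P301S and at 706, 461, 503 and 635 CPM with NR. It rose with 7 mice (log2FC 1.39, SE 0.179, adjusted p = 0.0381), and with 8 the adjusted p was 0.367. Meg3 was the only DEG among 15 nuclear long noncoding RNAs. Of these, 5 were higher at an unadjusted p under 0.05 in both fits, against 5.64% of all genes. The median of that list was 0.34 with 8 mice and 0.59 with 7. Malat1, which resides in nuclear speckles, stood at 45.7, 109, 49.0 and 58 CPM in hTau.P301S and at 212, 157, 219 and 142 CPM with NR, without overlap (adjusted p = 0.266 with 8 mice, 0.0687 with 7). Sox2ot was 20.7 ± 5.43 against 39.7 ± 4.25 CPM (SD, n = 4) and Miat 46.8 ± 8.56 against 75.6 ± 15.1 CPM, with adjusted p of 0.0632 and 0.115 with 7 mice. In WT mice Malat1 ranged from 32.3 to 659 CPM on vehicle.

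Genes of neurons outside the hippocampus were higher in some NR mice. Gbx1, a homeobox gene of forebrain cholinergic neurons, stood at 0.769, 0, 0 and 0 CPM in hTau.P301S, replicate 1 having 9 counts, and at 5.56, 7.62, 1.57 and 7 CPM with NR. It rose with 7 mice (adjusted p = 0.0389). In these 7 the NR mean, 5.43 CPM, was 33.4-fold a floor of 3 counts per library, or 0.163 CPM. That bound leaves out hTau.P301S replicate 1, whose 0.769 CPM lies above the floor. Sfta3-ps, which lies beside Nkx2-1, was also a DEG with 7 mice (adjusted p = 0.0496), with 1 count in all in the vehicle mice and 0.448 to 1.17 CPM with NR. In a list of 11 cholinergic and septal genes put together after the values had been seen, 9 of 9 tested genes were higher with 8 mice and 11 of 11 with 7, with 9 at an unadjusted p under 0.05 in both fits and median log2FC of 2.82 and 3.81. Members near 0 on vehicle could pass the low-count filter only through the NR mice, so these counts test nothing. Chat, which makes acetylcholine, stood at 0 to 0.163 CPM in hTau.P301S and at 8.69, 8.14, 0.28 and 9.38 CPM with NR (adjusted p = 0.0659 with 7 mice). Slc5a7, the choline transporter, stood at 0.0855 to 1.14 CPM on vehicle and at 14.4, 10.2, 1.74 and 18.6 CPM with NR. Ngfr and Lhx8 were likewise lowest in hTau.P301S + NR replicate 3 among the NR mice. The summed list was 22.5 to 81.9 CPM in hTau.P301S and 244, 286, 71.9 and 217 CPM with NR, so that replicate 3 lay within the vehicle range.

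The order of the NR mice differed for striatal genes. Of 16 striatal and thalamic genes, 16 were higher with NR in both fits, with median log2FC of 1.25 and 1.53. There was no DEG by edgeR. Of the 16, 9 had an unadjusted p under 0.05 in both fits, against 5.64% of all genes. With 8 mice 1 had no overlap, against 6.33% of all genes. DESeq2 called 4 higher with 8 mice, against 184 of all 30014 genes. Voom with sample quality weights called 3 higher, against 713 of all 16386. The summed level of the 16 genes was 268 to 459 CPM in hTau.P301S and 604, 758, 367 and 1409 CPM with NR, the highest in replicate 4. The NR mouse at 367 CPM, replicate 3, lay within the vehicle range. Drd2, the dopamine D2 receptor, had 11.3, 14.3, 6.05 and 30.9 CPM with NR against 2.60 to 6.59 CPM (adjusted p = 0.367 with 8 mice), and the transcription factor Six3 had 16.2, 14.8, 3.98 and 35.5 CPM against 0.111 to 3.00 CPM. Baiap3, a vesicle release protein of subcortical neurons, stood at 8.70 to 30.8 CPM on vehicle and at 83.1, 85.3, 30 and 95.9 CPM with NR. Of 20 hypothalamic genes, a list put together after the values had been seen, 6 of 7 tested were higher with 8 mice and 10 of 10 with 7, Sfta3-ps being the DEG. Genes near 0 on vehicle could pass the low-count filter only through the NR mice, so these counts test nothing. The summed level of the 20 genes was 35.3 CPM in hTau.P301S replicate 1 and 5.60 to 9.64 CPM in the other vehicle mice. With NR it was 20.4, 42.7, 25.4 and 78.8 CPM, so that replicate 1 lay within the NR range. The neuropeptide genes Oxt (0.538 to 8.01 CPM with NR, 0.0554 to 0.171 CPM without) and Trh (1.61 to 22.7 CPM against 0.265 to 0.545 CPM) did not overlap between groups and had adjusted p of 0.0803 and 0.0842 with 7 mice. Nkx2-1, a transcription factor of the hypothalamus and of some interneurons, was 0.862 ± 0.77 against 5.37 ± 1.99 CPM (SD, n = 4; adjusted p = 0.0898 with 7 mice).

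The labelled tissue was checked with its own markers. 8 markers of hippocampal excitatory neurons summed to 2557 CPM in hTau.P301S replicate 1, to 5403 to 6885 CPM in the other vehicle mice and to 3307 to 5730 CPM with NR, and none was at 0 in all 8 mice. In each fit 2 of the 8 were higher with NR and 6 lower, and 0 were DEGs or had an unadjusted p under 0.05 in both fits. Of 22 hippocampal subfield genes, 16 were lower with NR with 8 mice and 17 with 7, 4 at an unadjusted p under 0.05 in both fits, with median log2FC of -0.48 and -0.47 and no DEG by edgeR (with 8 mice voom called 1 lower and DESeq2 0). Homer3, a postsynaptic scaffold, stood at 58, 44.8, 60.2 and 40.2 CPM in hTau.P301S and at 29.3, 19.4, 29.6 and 6.80 CPM with NR, lowest in the mouse with the most striatal transcripts (adjusted p = 0.367 with 8 mice, 0.175 with 7). Bok, a Bcl-2 family gene of the CA3 field, was 191 ± 170 CPM on vehicle and 61.4 ± 17.4 CPM with NR (SD, n = 4; adjusted p = 0.367). Across the WT groups the same lists also spread. Striatal markers summed to 29.6 to 897 CPM in WT, 26.1 to 184 CPM in WT + NR, 26.3 to 35.7 CPM in hTau.P301S and 37.4 to 351 CPM in hTau.P301S + NR mice, and the septal list to 26.5 to 372 CPM, 24.6 to 267 CPM, 22.5 to 81.9 CPM and 71.9 to 286 CPM in the same order. The part of these markers in the higher levels of Gabre, Gabrq, Dgkk, Cckar, Gbx1, Peg10 and the other DEGs was not tested.

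Of genes at the synapse, several with an unadjusted p under 0.05 in both fits missed the adjusted threshold. The metabotropic glutamate receptor Grm3 was 26.7 ± 9.73 CPM in hTau.P301S and 47.3 ± 6.16 CPM with NR (SD, n = 4), and the NMDA receptor subunit Grin3a 28.5 ± 10.6 against 56.4 ± 11.1 CPM (adjusted p = 0.148 and 0.0785 with 7 mice). Of 37 glutamate receptor and scaffold genes, 8 were higher and 1, Homer3, lower at that level, against 5.64% and 4.41% of all genes. The vesicle protein Sv2c stood at 5.30, 32.0, 21.5 and 30.9 CPM and, with NR, at 76.3, 59.8, 49.5 and 102 CPM (adjusted p = 0.0632 with 7 mice), and the priming factor Unc13c was 14.1 ± 5.59 against 49 ± 39.3 CPM, with 108 CPM in hTau.P301S + NR replicate 4. Rab3a, a small GTPase of synaptic vesicles, was 763 ± 227 against 506 ± 54.2 CPM (adjusted p = 0.216 with 7 mice). The calcium channel Cacna1g was 34.4 ± 5.34 against 59.8 ± 11.2 CPM (adjusted p = 0.0742 with 7 mice). Of 43 voltage-gated channel genes, 7 were higher and 0 lower at an unadjusted p under 0.05 in both edgeR fits. Over all genes the shares were 5.64% and 4.41%. Scn9a was the DEG with 7 mice. With 8 mice voom with sample quality weights called 4 higher and 1 lower, against 713 and 239 of all 16386 genes.

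The lists of neuronal splicing regulators, of SR proteins and hnRNPs and of snRNP genes held no DEG by edgeR in either fit. Of 38 neuronal splicing regulators, 4 were higher and 2 lower at an unadjusted p under 0.05 in both fits, against 5.64% and 4.41% of all genes. With 8 mice voom with sample quality weights called 4 higher and 2 lower, against 713 and 239 of all 16386 genes. DESeq2 called 1 lower, against 69 of all 30014 genes. Qk, an RNA-binding protein of glia, was 266 ± 56.8 against 453 ± 78.3 CPM, Nova1 40.6 ± 5.5 against 62.4 ± 9.07 CPM and Fubp1 48.8 ± 13.8 against 78.5 ± 5.9 CPM (SD, n = 4; adjusted p = 0.085, 0.102 and 0.0687 with 7 mice). The cold-inducible Cirbp was 128 ± 59.8 against 55.6 ± 9.92 CPM and Rbm3 149 ± 69.1 against 68.8 ± 17.1 CPM (adjusted p = 0.0632 and 0.102 with 7 mice), and both were highest in hTau.P301S replicate 1. Among SR proteins and hnRNPs, 3 of 33 were higher and 1 lower at that level, and Tra2a, a splicing activator, was 42 ± 8.38 against 59.9 ± 4.03 CPM (adjusted p = 0.059 with 7 mice). Of 57 snRNP genes, 5 were lower and 0 higher, among them Snrpb (87.6 ± 39.5 against 42.1 ± 7.05 CPM, adjusted p = 0.102 with 7 mice) and Snrpd3 (90.1 ± 33.4 against 52.8 ± 4.5 CPM, adjusted p = 0.0742).

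In several large gene families the size of the difference depended on hTau.P301S replicate 1, while the median kept its sign without it. All 78 cytosolic ribosomal protein genes were lower with NR with 8 mice (median log2FC -2), and without replicate 1 there were 55 lower and 23 higher (median -0.05). Rpl22 stood at 600 CPM in replicate 1, at 98.7 to 115 CPM in the other vehicle mice and at 80.9 to 94.6 CPM with NR. All 81 nuclear respiratory chain genes were lower with 8 mice (median -1.58) and 71 with 7 (median -0.18), 10 of them at an unadjusted p under 0.05 in both fits, such as the ATP synthase gene Atp5g1, at 600 CPM in replicate 1, 105 to 130 CPM in the other vehicle mice and 66.0 to 84.7 CPM with NR (adjusted p = 0.0755 with 7 mice). Of 37 proteasome subunits, 35 were lower with 8 mice and 34 with 7, with medians of -0.85 and -0.24 and 9 at an unadjusted p under 0.05 in both fits. Among them Psmb3 stood at 531 CPM in replicate 1 and at 60.1 to 72.8 CPM in the others against 44.3 to 59.7 CPM with NR (adjusted p = 0.367 with 8 mice, 0.177 with 7), and Psmd2 was 270 ± 75.3 against 181 ± 8.58 CPM (SD, n = 4). None of these families held a DEG by edgeR. With 8 mice voom called 1 respiratory chain gene and 1 proteasome gene lower, against 239 of all 16386 genes, and DESeq2 called 0. Over all genes 4.41% were lower at an unadjusted p under 0.05 in both fits. Of 13 mitochondrially encoded mRNAs, 10 were lower with 8 mice and 8 with 7 (median -0.68 and -0.12), and mt-Co1 had adjusted p of 0.43 and 0.72.

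**Figure D4:**
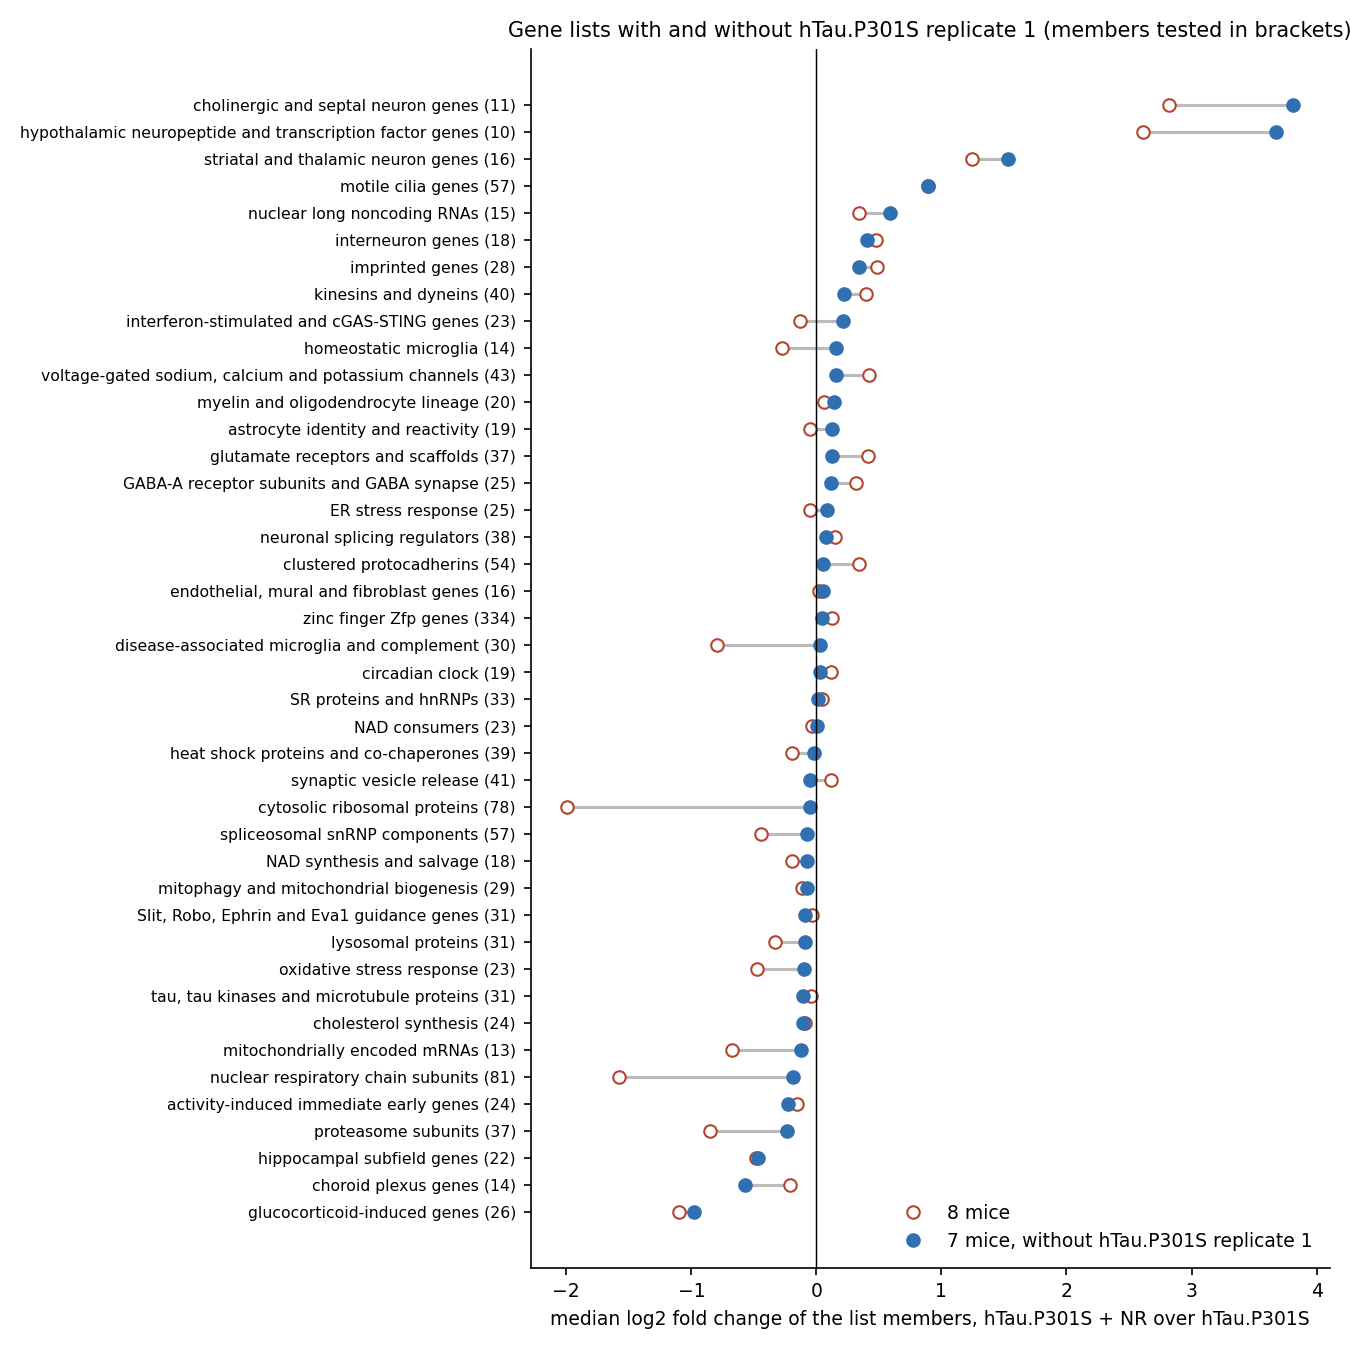
Median log2FC of the members of 42 gene lists (x axis), hTau.P301S + NR over hTau.P301S, with 8 mice (open circles) and with 7 mice, without hTau.P301S replicate 1 (filled circles), with the number of members tested in brackets. Ribosomal, respiratory chain and proteasome lists lie left of 0 with 8 mice and move toward 0 with 7, whereas the cholinergic, hypothalamic, striatal, motile cilia and glucocorticoid-induced lists stay on their side of 0.

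The homeostatic microglia list changed side without replicate 1. Of 14 homeostatic microglia genes, 12 were lower with 8 mice (median log2FC -0.28) and 12 higher with 7 (median 0.16). Sall1, a transcription factor that keeps microglial identity, was 23.6 ± 6.35 against 40 ± 5.49 CPM and the fractalkine receptor Cx3cr1 49.5 ± 20.6 against 81.9 ± 13.2 CPM (SD, n = 4; adjusted p = 0.0775 and 0.235 with 7 mice). Of 30 disease-associated microglia and complement genes, 27 were lower with 8 mice (median -0.80), and with 7 mice 15 were lower and 15 higher (median 0.03). Apoe, the lipid carrier, stood at 8720, 3114, 2722 and 1466 CPM in hTau.P301S and at 2162, 2478, 2080 and 2221 CPM with NR, replicate 1 alone being far above the rest. Neither list held a DEG by edgeR; with 8 mice voom called 1 homeostatic gene higher and DESeq2 called 0.

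Among other glial and vascular genes, the astrocyte water channel Aqp4 was 102 ± 32.2 against 198 ± 66.4 CPM and the gap junction protein Gjb6 77.7 ± 22.9 against 55.6 ± 2.3 CPM (SD, n = 4; adjusted p = 0.16 and 0.128 with 7 mice). Ugt8a, an enzyme of myelin galactolipid synthesis, stood at 36.9, 25.5, 57.0 and 51.4 CPM in hTau.P301S and at 117, 85.0, 80.4 and 76.6 CPM with NR (adjusted p = 0.112 with 7 mice). Sox10, the transcription factor of the oligodendrocyte lineage, was 55.4 ± 12.2 against 80.1 ± 9.81 CPM (adjusted p = 0.183). The endothelial VEGF receptor Flt1 stood at 5.13, 50.4, 31.8 and 26.5 CPM in hTau.P301S and at 73.7, 69.0, 74.1 and 67.8 CPM with NR, without overlap (adjusted p = 0.066 with 7 mice, 0.367 with 8). Summed oligodendrocyte markers were 5552 to 8140 CPM on vehicle and 5392 to 7349 CPM with NR, microglial markers 217 to 336 and 230 to 324 CPM, and endothelial and pericyte markers 72.5 to 120 and 132 to 149 CPM. Choroid plexus tissue varied from mouse to mouse: Ttr, its most abundant transcript, stood at 6.50, 4469, 7.85 and 10.6 CPM in hTau.P301S and at 44.4, 3412, 20.6 and 396 CPM with NR. Red blood cell genes summed to 1.91 to 23.6 CPM on vehicle and 1.18 to 2.46 CPM with NR.

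Among the genes with the smallest p with 8 mice, Alpl, tissue-nonspecific alkaline phosphatase, stood at 3.5, 4.13, 3.92 and 4.93 CPM in hTau.P301S and at 10.2, 11.2, 8.29 and 12.9 CPM with NR (log2FC 1.31, SE 0.206, adjusted p = 0.0501 with 7 mice, 0.26 with 8). It lay just above the threshold. Itgad, the integrin αD, was 2.03 ± 0.705 against 0.432 ± 0.118 CPM, Klhl40 8.78 ± 1.39 against 3.82 ± 0.519 CPM and the endosomal protein gene Plekhf1 14.6 ± 6.19 against 4.57 ± 1.1 CPM (SD, n = 4; adjusted p = 0.0603, 0.0632 and 0.0632 with 7 mice). Fam196b was 1.62 ± 0.334 against 7.26 ± 2.92 CPM (adjusted p = 0.0646). Fgb, which codes for fibrinogen β, was at 0.61 to 6.75 CPM on vehicle and 0.0522 to 0.194 CPM with NR (adjusted p = 0.0632). The predicted genes Gm19439 and Gm8325 were 24.4 ± 6.49 against 10.2 ± 1.77 CPM and 7.08 ± 1.3 against 3.27 ± 0.327 CPM. In each of these genes the groups did not overlap, which was part of the rule that chose them and is no result.

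Genes of NAD+ metabolism itself gave no DEG by edgeR. Of 17 NAD+ synthesis and salvage genes tested with 8 mice, 0 had an unadjusted p under 0.05 in both edgeR fits, and DESeq2 and voom with sample quality weights called 0. The NR kinase gene Nmrk1 stood at 4.53, 4.13, 4.74 and 4.88 CPM in hTau.P301S and at 3.5, 3.70, 5.77 and 3.06 CPM with NR (adjusted p = 0.693 with 8 mice, 0.739 with 7). Nampt, the rate-limiting enzyme of salvage, was 68.4 ± 21.1 against 66.5 ± 12.5 CPM, and Nmnat2, the axonal NMNAT enzyme, was 164 ± 64.9 against 180 ± 10.1 CPM (SD, n = 4; adjusted p = 0.941 and 0.836 with 8 mice). Of 23 NAD+ consumers, 1 was higher and 2 were lower at an unadjusted p under 0.05 in both fits, and with 8 mice voom called 1 higher and 2 lower and DESeq2 0. Parp1, the main poly(ADP-ribose) polymerase, stood at 99.9, 128, 138 and 117 CPM in hTau.P301S and at 83.4, 82.3, 101 and 63.7 CPM with NR (log2FC -0.55, SE 0.185, adjusted p = 0.367 with 8 mice, 0.0914 with 7). Sirt6 was 15.1 ± 3.32 against 9.09 ± 1.85 CPM, Parp14 2.98 ± 1.42 against 5.45 ± 0.86 CPM and Sirt1 16 ± 3.97 against 17.4 ± 1.66 CPM (SD, n = 4; adjusted p = 0.166, 0.242 and 0.985 with 7 mice).

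Mapt, the mouse tau gene, was 365 ± 124 CPM in hTau.P301S and 460 ± 27.5 CPM with NR (SD, n = 4; adjusted p = 0.518 with 8 mice, 0.597 with 7), and the human transgene was not analysed here. Thy1, whose promoter drives the transgene, stood at 1640, 804, 1102 and 993 CPM in hTau.P301S and at 667, 712, 845 and 708 CPM with NR, with overlapping groups (adjusted p = 0.367 and 0.199). WT mice on vehicle had 462 to 634 CPM of Thy1, and whether transgene sequence adds to its count was not tested. Eva1c (chr16:90826719-90905109, plus strand, mm10), a Slit-binding membrane protein, stood at 6.15, 3.97, 3.27 and 4.54 CPM in hTau.P301S and at 1.70, 2.61, 1.40 and 2.09 CPM with NR, without overlap (log2FC -1.20, SE 0.314, adjusted p = 0.367 with 8 mice; log2FC -1, adjusted p = 0.128 with 7). Eva1c was at 2.49 to 2.69 CPM in WT mice. Of 31 guidance genes, 5 were lower and 0 higher at an unadjusted p under 0.05 in both edgeR fits. Over all genes the shares were 4.41% and 5.64%. Eva1c and the ephrin Efna3 (61.2 ± 15 against 33.7 ± 4.21 CPM) were among the 5. With 8 mice DESeq2 and voom each called 2 lower, against 69 of all 30014 and 239 of all 16386 genes. Of 31 tau, tau kinase and microtubule genes, 1 was higher and 2 were lower at that level: the tau kinase Ttbk2 was 52.1 ± 21.8 against 88.9 ± 8.18 CPM and the tubulin Tubb2a 509 ± 138 against 303 ± 30.4 CPM (adjusted p = 0.126 and 0.133 with 7 mice).

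The same treatment was then compared in WT mice. With 8 WT mice edgeR called 0 of 16714 genes, with 132 genes at an unadjusted p under 0.05, and DESeq2 called 3. Of the 33 genes called in hTau.P301S with 7 mice, 31 were tested in WT and 1 had an unadjusted p under 0.05 there. Of the genes that rose in hTau.P301S, 16 were higher and 8 lower in WT with NR, and of those that fell, 5 were higher and 2 lower. Plin4 had a log2FC of 0.72 (SE 0.354) in WT, Htra1 0.28 (SE 0.123), Ddit4 -0.07 (SE 0.175), Gabre -0.36 (SE 1.52) and Meg3 -1.05 (SE 0.649). The levels of Gabre spanned 0.0541 to 14.6 CPM within the 4 WT mice on vehicle.

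**Figure D5:**
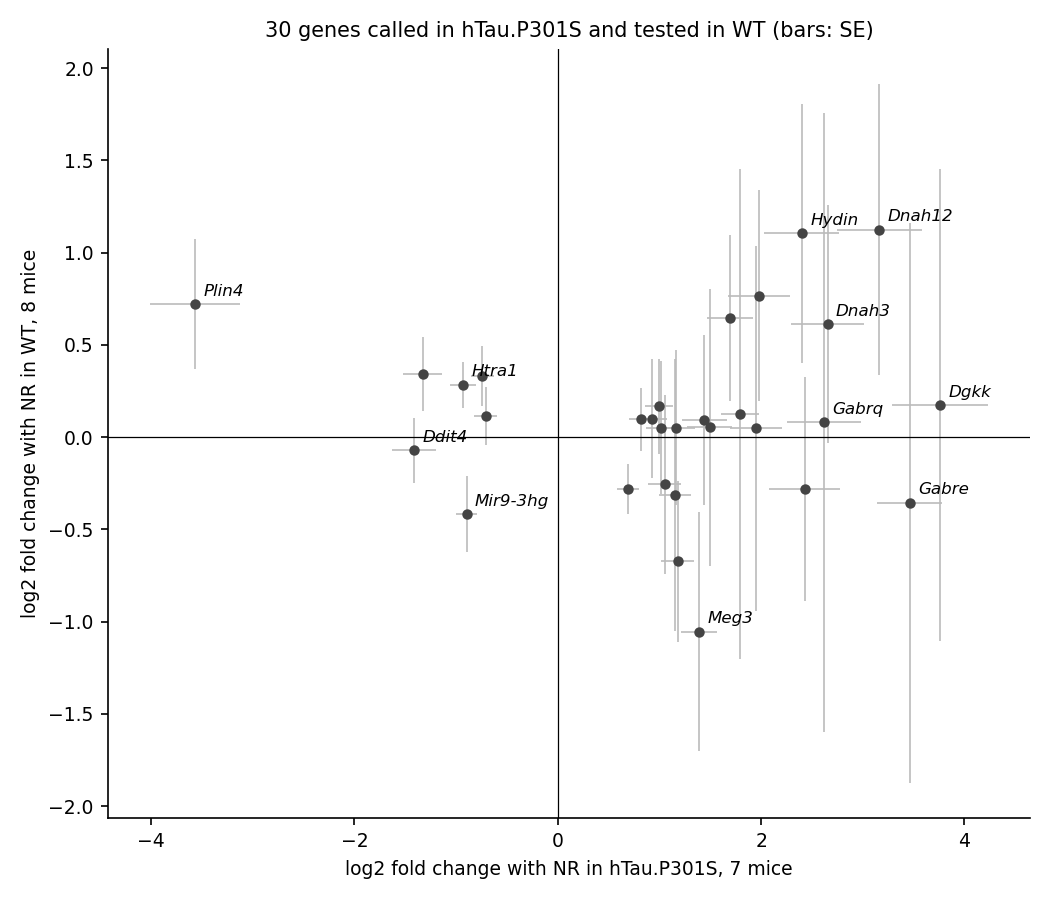
Log2FC with NR in hTau.P301S with 7 mice (x axis) and in WT with 8 mice (y axis) for 30 genes called in hTau.P301S and tested in WT, with bars for the standard error; Gbx1, at 0 in the vehicle mice used, is left out. Genes that rose in hTau.P301S lie on both sides of 0 in WT, and the bars on the y axis are wide for genes such as Gabre and Dgkk.

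The difference between the genotypes was tested as an interaction. With 16 mice edgeR called 0 of 17555 genes (1390 at an unadjusted p under 0.05; DESeq2 called 16), and without hTau.P301S replicate 1 it called 0 of 17897 (1343; DESeq2 called 25). The lowest adjusted p were those of Htra1 and Plin4, 0.172 with 16 mice and 0.0594 with 15. For Plin4 the log2FC with NR differed by -4.04 between hTau.P301S and WT with 16 mice, and for Htra1 by -1.30. Mfsd2a and Nfkbia had adjusted p of 0.484 and 0.28 with 16 mice and 0.162 each with 15. For Gabre the interaction had an adjusted p of 0.558. Of the 31 genes, 22 had an unadjusted interaction p under 0.05 with 16 mice, and none passed the adjusted threshold by edgeR. The 31 had been chosen for their change with NR in the same hTau.P301S mice, so the count of 22 tests nothing.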

How the data were processed

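Hippocampal poly(A) RNA of 16 mice was sequenced, 4 in each of 4 groups taken from the labels. Per the methods of the study and the labels, the authors ran FastQC, trimmed reads with Trim Galore, aligned them to mm10 with STAR and counted them per gene with RSEM. They deposited whole-number counts without normalization for each mouse, beside a gene length used only to remove a length trend in an alternative. Gene positions are from GENCODE M21, which held 54495 of the 54532 genes. Promoters are from RefSeq.

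The 8 mice of a comparison were fitted with edgeR 4.0.16 in R 4.3.3 (filterByExpr, TMM, quasi-likelihood test, Benjamini-Hochberg adjustment over all genes), and the interaction over 16 or 15 mice. DEGs passed 0.05 on the adjusted p and 0.5 on the absolute log2FC, the limits of the study, whose own test was DESeq2. The interaction used the adjusted p alone. CPM used TMM-scaled library sizes. Fits were tested on simulated counts. The mitochondrial share was compared with scipy 1.17.1. Alternatives were DESeq2 1.42.0, limma 3.58.1 (voom with sample quality weights), the robust test, all 4 groups in one fit, the size factors of DESeq2, a low-count filter either absent or set to 10 counts in all mice, leaving out mitochondrially encoded genes, the adjusted p alone, a replicate block, removal of a length trend and each mouse left out in turn. The range of depth is given in the report. Genes at a few CPM carry more counting error than others.

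The comparison, gene lists and tests were chosen with earlier results of these data known, and the motile cilia, hypothalamic, cholinergic and septal, and glucocorticoid-induced lists after these values were seen. Genes named were at most the 15 DEGs with the largest fold per direction and fit, the 12 genes per direction with the smallest p with 8 mice, a mean of at least 1 CPM, the same sign with 7 mice and no overlap, at most 4 genes per direction of each list fixed earlier with an unadjusted p under 0.05 and the same sign in both fits (where there was none, the 2 with the highest mean), and Mapt, Thy1, Eva1c, Nmrk1, Nampt, Sirt1, Parp1, Gabre, Gabrq, Gabra3 and the sex-linked genes. Other genes named, among them Gpr101, Podxl, Sema6d, Srgap1, Rbm28 and the members of the 4 later lists, were chosen after their values were seen.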

Additional observations from a re-analysis of the deposited data

Results flagged for a closer look

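In groups of 4, a mouse was singled out when its gap to the nearest of the others was most of the group's range, by Dixon's 95% limit. Of 244 groups tested, 32 held such a mouse, where chance gives about 1 in 20, and 17 of the 32 were hTau.P301S replicate 1.

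Replicate 1 was above the other 3 hTau.P301S mice at 0.769 CPM of Gbx1, 2.22 CPM of Dnah3, 49.5 CPM of Mir9-3hg, 691 CPM of Tmem59l, 2544 CPM of Mt1 and 67.9 CPM of Mt2. It was also above them at 252 CPM of Rbm3, 140 CPM of Snrpd3, 599.7 CPM of Atp5g1, 531 CPM of Psmb3 and 600.4 CPM of Rpl22. It was below them at 0.598 CPM of Gpr101, 5.38 CPM of Srgap1, 26.4 CPM of Cacna1g, 37.1 CPM of Nampt, 66.9 CPM of Nmnat2 and 14.2 CPM of Sall1.

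Of the other hTau.P301S mice, replicate 2 was high at 0.053 CPM of Sfta3-ps (1 count), 2.91 CPM of Dnah6 and 4469 CPM of Ttr. Replicate 3 was high for 3 genes of septal or subcortical neurons, at 0.599 CPM of Lhx8, 2.02 CPM of Nkx2-1 and 30.8 CPM of Baiap3.

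With NR, replicate 3 was low at 0.448 CPM of Sfta3-ps, 1.62 CPM of Lhx8 and 0.28 CPM of Chat, 3 genes of septal or hypothalamic neurons. Replicate 1 was high at 130 CPM of Sema6d and 13.9 CPM of Dnah6. Replicate 2 was high at 70.4 CPM of Cirbp and 3412 CPM of Ttr. Replicate 4 was high at 108 CPM of Unc13c and 76.6 CPM of Cacna1g.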

How the results depend on the processing

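The number of DEGs depended on the test. With 8 mice, against 1 in edgeR, DESeq2 called 253 genes, voom with sample quality weights 952, edgeR with all 4 groups in one fit 2, DESeq2 with all 4 groups 245, and edgeR with at least 10 counts in every mouse 0. Leaving out each mouse in turn gave 0 to 33. With 7 mice, against 33, the same settings gave 687, 857, 2, 111 and 14, no filter gave 477, and leaving out a further mouse gave 0 to 90. Of the 33 genes, 26 were also called with 8 mice by DESeq2 and 32 by voom. The 8 mice include the 7 that gave the 33 genes, and voom gave hTau.P301S replicate 1 a weight of 0.0498. The robust test, DESeq2 size factors, the adjusted p alone, the removal of mitochondrially encoded genes and the removal of a length trend gave 1 call with 8 mice and 37, 34, 33, 34 and 23 with 7. In WT, DESeq2 called 3 genes. For the interaction, DESeq2 called 16 with 16 mice and 25 with 15, and leaving out each mouse gave 0 to 1. The cause of these differences was not tested.

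Replicate numbers did not pair the mice, which are different animals: the correlation of same-numbered mice was -0.117, -0.00471, 0.159 and -0.0482. With the replicate number as a block, 0 genes were called with 8 mice, 3 with 7 (2 of them among the 33), 0 in WT and 0 in the interaction.

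Over 117 genes named, 2063 of 2318 values under the alternatives kept their direction and side of the threshold, 231 passed it only there and 10 lost it. 5 genes changed sign. Leaving out each mouse in turn gave -0.24 to 0.064 for Nampt, -0.0075 to 0.26 for Sirt1, -0.12 to 0.23 for Nmnat2 and -2.86 to 6.87 for Ttr, and the negative values of Sirt1 and Nmnat2 were those without hTau.P301S replicate 1. With voom, Nmnat2 was at -0.14, Apoe at 0.12 and Ttr at 1.72, and with the replicate block Ttr was at 2.17. Leaving out each mouse moved the difference in mitochondrial share to between -3.52 and -0.247 percentage points, against -2.42 with all 8.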
